A study of Mus musculus with 9 samples.

Results

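DNA replication and mitosis genes were examined in organoids grown from the gut of mice that carry a mutated Apc gene. The set holds 55 genes of 23955 rows in the count table, picked by symbol for their textbook roles. Every one of them was present in the table, and all 55 passed the low-count filter in each of the 3 comparisons. The samples were MIN organoids, from APC-mutated normal gut epithelium lying next to the adenomas, adenoma organoids, from adenomatous polyps, and adenoma organoids treated with the NSAID sulindac, a non-steroidal anti-inflammatory drug, with 3 samples in each group. All 9 samples share the APCmin/+ genotype, so no sample here has unmutated Apc. They also share the culture medium, which contained Noggin, EGF, bFGF, R-spondin1 and B27. The dose and duration of sulindac on the organoids, and whether the untreated adenoma organoids received vehicle, are not given in the sources used here. The sources call the samples of a group biological replicates without tying them to animals, so the p-values measure only the spread between these samples.

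A dividing cell first licenses its replication origins in G1 phase by loading the MCM helicase, then fires them in S phase with the help of CDC45 and the GINS complex, and copies its DNA with polymerases held by the PCNA clamp. Mitosis follows under the control of CDK1 with its cyclins, and a second wave of transcription supplies the kinases, motor proteins and centromere proteins that separate the chromosomes. In the gut epithelium these genes mark the cycling cells of the crypt, and in organoids the budding, crypt-like parts. E2F factors drive many of the S phase genes and bind words with a run of T before GC-rich letters, whereas many G2/M genes carry a CHR element, which is read by the DREAM complex and by MYBL2 together with FOXM1, often near CCAAT boxes bound by NF-Y.

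These letters were looked for in the promoters, taken as the 300 bases from 250 before to 50 after the annotated start, in the RefSeq annotation of mouse build GRCm38.p6, which held a promoter for 45 of the 55 genes. The E2F words searched were TTTCCCGC, TTTGGCGC, TTTCGCGC and TTTGCCGC and the CHR words were TTTGAA and TTCGAA, on both strands and next to CCAAT. E2F words may share bases with each other and with CCAAT, and each match was counted. The 5 promoters below are examples. Ccnb2 and Top2a were picked as mitosis genes with CHR words and Mcm6 as an S phase gene with E2F words. E2f2 and Rfc3 were picked for the largest fold changes between MIN and adenoma and after sulindac. They lie at chr9:70421505-70421804 (minus strand, Ccnb2), chr11:99024140-99024439 (minus strand, Top2a), chr1:128359656-128359955 (minus strand, Mcm6), chr4:136172024-136172323 (plus strand, E2f2) and chr5:151651159-151651458 (minus strand, Rfc3). Each is written 5′ to 3′ on the strand of the gene, with the E2F and CHR words, read on either strand, in capitals.
Ccnb2: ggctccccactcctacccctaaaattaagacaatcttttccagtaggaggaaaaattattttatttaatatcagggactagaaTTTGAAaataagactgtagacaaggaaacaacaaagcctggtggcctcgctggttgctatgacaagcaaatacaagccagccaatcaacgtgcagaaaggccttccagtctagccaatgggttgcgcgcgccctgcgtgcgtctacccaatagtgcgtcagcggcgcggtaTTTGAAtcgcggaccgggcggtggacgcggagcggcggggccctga
Top2a: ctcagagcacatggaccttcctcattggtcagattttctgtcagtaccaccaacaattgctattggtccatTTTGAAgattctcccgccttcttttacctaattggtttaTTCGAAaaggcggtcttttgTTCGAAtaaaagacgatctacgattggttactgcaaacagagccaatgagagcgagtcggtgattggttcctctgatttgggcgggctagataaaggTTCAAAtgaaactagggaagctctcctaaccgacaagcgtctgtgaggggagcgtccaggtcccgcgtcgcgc
Mcm6: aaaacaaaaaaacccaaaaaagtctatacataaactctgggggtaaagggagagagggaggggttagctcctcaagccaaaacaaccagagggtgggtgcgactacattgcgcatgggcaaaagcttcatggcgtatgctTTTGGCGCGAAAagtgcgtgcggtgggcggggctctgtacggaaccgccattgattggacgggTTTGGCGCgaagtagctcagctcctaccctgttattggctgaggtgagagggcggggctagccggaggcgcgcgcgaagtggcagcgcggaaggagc
E2f2: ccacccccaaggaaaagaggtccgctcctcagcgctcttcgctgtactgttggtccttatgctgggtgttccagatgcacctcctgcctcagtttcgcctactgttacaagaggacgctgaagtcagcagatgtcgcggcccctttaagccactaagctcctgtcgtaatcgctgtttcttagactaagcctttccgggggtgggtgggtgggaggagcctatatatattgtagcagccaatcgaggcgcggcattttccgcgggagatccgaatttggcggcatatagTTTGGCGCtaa
Rfc3: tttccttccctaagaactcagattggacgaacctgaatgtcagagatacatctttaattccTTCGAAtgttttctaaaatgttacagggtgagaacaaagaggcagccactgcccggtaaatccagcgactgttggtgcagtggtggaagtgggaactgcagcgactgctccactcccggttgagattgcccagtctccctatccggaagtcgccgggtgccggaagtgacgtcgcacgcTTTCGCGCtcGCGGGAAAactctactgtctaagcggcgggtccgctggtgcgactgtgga
Ccnb2 holds 2 CHR words, one of them just inside the transcript, and 3 CCAAT boxes, and Top2a holds 4 CHR words and 6 CCAAT boxes. In Mcm6 there are 3 E2F words, of which 2 overlap on opposite strands. Rfc3 holds 2 E2F words around its start and 1 CHR word farther upstream. E2f2 has a second annotated promoter, not printed, and the one shown holds 1 E2F word.

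The words divided the set along its roles. Among the genes acting in G1 and S phase (cyclin E and CDK2, licensing, synthesis and nucleotide supply), 9 of 21 promoters (42.9%) held an E2F word, against 1 of 19 (5.26%) among the mitosis genes and 2.6% of the promoters of all 27025 genes in the annotation. CHR words ran the other way, with 16 of 19 mitosis promoters (84.2%) against 4 of 21 S phase promoters (19%) and 21.7% of all genes. CCAAT was present in 94.7% of the mitosis promoters, 66.7% of the S phase promoters and 41.1% of all. Of the 5 transcription factor genes with a promoter, E2f2 and E2f7 held an E2F word and E2f2 and E2f8 a CHR word. A gene with more than 1 promoter was counted if any of them held the word. The CHR word of E2f2 lies in its second promoter, not in the one printed. A match describes letters in this window and is neither a bound site nor a cause of any difference below.

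**Figure D1:**
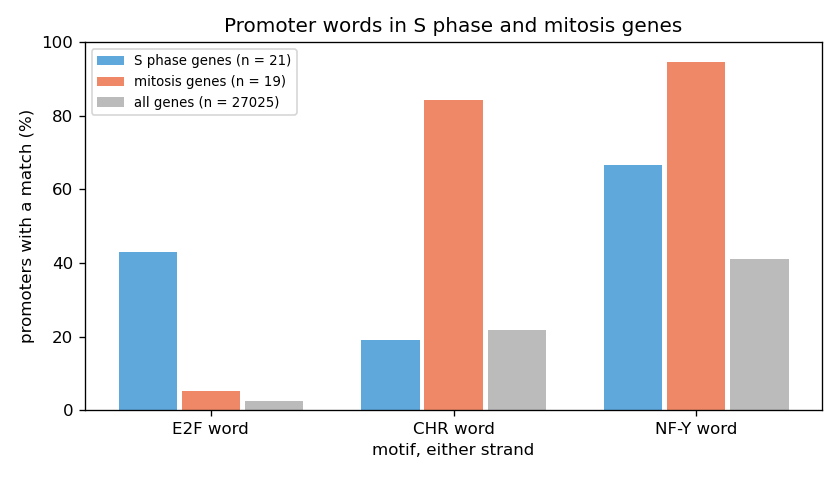
Share of promoters (y axis, percent) that hold an E2F word, a CHR word or the CCAAT word bound by NF-Y (x axis) on either strand, for S phase members (n = 21), mitosis members (n = 19) and all genes with a promoter (n = 27025). E2F words stand out in the S phase members at 42.9% and CHR words in the mitosis members at 84.2%, against 2.6% and 21.7% of all genes.

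Depth lay between 30881206 and 48412477 counts a sample, of which the top 10 genes held 5.15% to 7.48%. Levels are given in CPM, read counts set relative to the library size after TMM scaling for composition, and 3 counts correspond to 0.0641 to 0.100 CPM, a floor that covers counting error only. The epithelial genes Cdh1, Epcam, Krt8 and the gut factor Cdx2 were at no less than 73.4 CPM in every sample, and Krt18 and Vil1 at no less than 165 CPM, while Cdx1, another gut factor, held 91.1 to 114 CPM in MIN and at most 0.153 CPM in the other 6 samples. Of these 7 epithelial markers 5 were lower in adenoma than in MIN, and their sum ranged over 4795 to 6682 CPM for MIN, 3026 to 3841 for adenoma and 4078 to 4781 after sulindac. Summed markers of absorptive enterocytes ranged over 2530 to 3269 CPM for MIN, 46.1 to 80.2 for adenoma and 9.90 to 27.0 after sulindac, and those of secretory cells over 7919 to 10029, 95.4 to 226 and 45.1 to 93.4 CPM. All 6 absorptive and all 6 secretory markers were lower in adenoma than in MIN. The 4 stem cell markers did not move together in adenoma over MIN: Olfm4, at 658 CPM or more in MIN and at most 0.231 CPM in adenoma, and Lgr5 (-1.10) were lower, Ascl2 (1.37) was higher and Smoc2 (-0.13) did not pass, all on the log2 scale. Their sum ranged over 1121 to 2224, 340 to 588 and 152 to 332 CPM in the 3 groups. Markers of leukocytes, of mesenchyme and of endothelium each summed to at most 4.22 CPM in any sample, with Emr1, Col1a2, Col3a1, Dcn and Lum at 0 in all 9. The MIN samples thus differ from the other 6 in the RNA of markers of differentiated cells. Treated and untreated adenoma did not overlap in the absorptive, secretory and stem cell sums either, though the secretory ranges nearly met (93.4 and 95.4 CPM). The part of these differences in the results on replication and mitosis genes was not tested. In bulk samples, fewer cycling cells and less RNA of these genes per cycling cell cannot be told apart.

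Together the 55 genes took 0.483% to 0.633% of the counts in MIN, 0.406% to 0.544% in adenoma and 0.291% to 0.346% after sulindac. On the scaled level their sum was 6310, 6250 and 5050 CPM in the 3 MIN samples, 4930, 4959 and 3960 CPM in adenoma, and 2995, 3712 and 3094 CPM after sulindac. The groups did not overlap in this sum, although the lowest MIN and the highest adenoma sample lay close. The samples of a group varied together across the set. MIN replicate 3 was the lowest MIN sample for 51 of the 55 genes, against 40.2% of the 14010 genes with at least 10 counts in 3 or more samples. Adenoma replicate 3 was the lowest of its group for 47 genes (37.3% of the 14010), and sulindac replicate 2 the highest of its group for 51 (40.6% of the 14010).

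**Figure D2:**
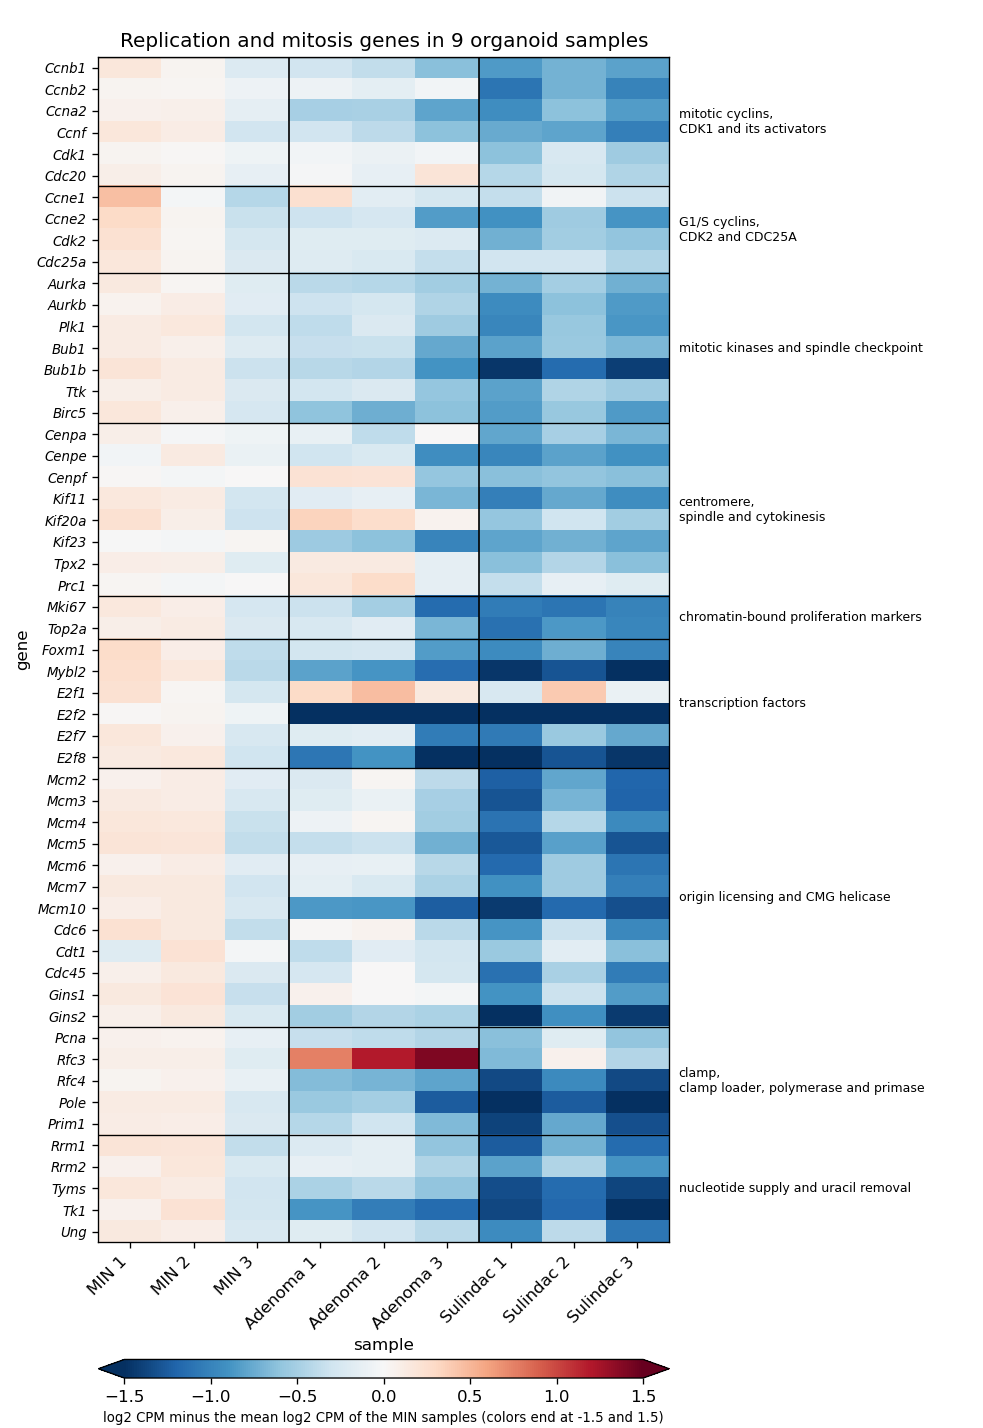
Each row is one of the 55 genes, ordered by role, and each column one of the 9 samples. Color is the log2 CPM minus the mean log2 CPM of the 3 MIN samples, blue lower and red higher, with colors ending at -1.5 and 1.5. Most rows deepen in blue from MIN to the sulindac columns, Rfc3 is deep red in the adenoma columns, and E2f1 stays near 0.

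The first comparison asks how adenoma organoids differ from those of the adjacent normal epithelium. By edgeR's quasi-likelihood test at a false discovery rate (FDR) of 1%, 10 of the 55 genes (18.2%) were lower in adenoma than in MIN, where 20.1% of all 13744 genes tested were lower. Only Rfc3 was higher (18.5% of all genes). The 10 were Ccna2, Aurka, Birc5, Kif23, Mybl2, E2f2, E2f8, Mcm10, Rfc4 and Tk1. The median log2 fold change of the 55 was -0.35, against -0.01 over all genes tested, and 49 of them had a negative value. Adenoma lay wholly below MIN for 22 genes (40.0%; 32.2% of all genes), and wholly above it for 1 (30.7% of all genes). Same-numbered adenoma and MIN samples deviated together only weakly (correlations of 0.13, 0.11 and 0.19), and the labels do not say what a number marks. Replicates 1 and 2 were hardly told apart, as adenoma 1 with MIN 2 gave 0.05 and adenoma 2 with MIN 1 gave 0.07. Blocking on that number gave 19 lower genes, where 19.9% of all genes were lower. They were the 10 above and Bub1, Bub1b, Ccnb1, Foxm1, Mcm5, Mki67, Pole, Prim1 and Tyms. The share of the 55 genes was thus near that of all genes without the block. With the block it was above that share, but the pairing behind the block rests on these weak correlations. Without MIN replicate 3 the count was 18 (19.2% of all genes), and scaling by library size alone, which moved the median of all genes to 0.12, left 6 (16.6% of all genes).

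The second comparison asks what sulindac changed in adenoma organoids. All 55 genes had a negative log2 fold change, with a median of -0.46 against -0.01 over all genes, and 10 (18.2%) passed the edgeR test as lower, where 9.10% of 12962 genes did. These were Ccnb2, Bub1b, Kif20a, Tpx2, E2f2, Mcm2, Mcm3, Gins2, Rfc3 and Tyms. None was higher by edgeR at an FDR of 1%, none at an unadjusted p under 0.05 and none by DESeq2, where 8.32% of all genes were higher by edgeR. At an unadjusted p under 0.05, 40 of the 55 were lower, and 3108 of the 12962. Sulindac-treated samples lay wholly below the untreated for 32 genes (58.2%; 26.0% of all genes) and wholly above for 0 (22.9% of all genes). The count of 10 depended on single samples: it was 26 without adenoma replicate 3, 12 without sulindac replicate 2, 4 without adenoma replicate 1, 3 without adenoma replicate 2 or sulindac replicate 1, and 2 without sulindac replicate 3, runs in which 2.93% to 11.3% of all genes were lower. Ccnb2 and Tyms passed with any 1 sample left out. Bub1b, E2f2 and Tpx2 passed only while both other adenoma samples and all 3 treated ones were in the fit, Gins2, Kif20a and Mcm3 were lost without adenoma replicate 1 or 2 or sulindac replicate 1 or 3, and Mcm2 without adenoma replicate 2 or sulindac replicate 1 or 3. DESeq2 gave 25 lower (13.6% of all genes), as did library size alone (15.3% of all genes), under which the median of all genes moved to -0.18.

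Sulindac-treated adenoma organoids were also set against MIN, a comparison that differs in tissue of origin and in treatment at once and shares its samples with both others. Here 45 of the 55 genes (81.8%) were lower, where 26.8% of 13551 genes were, and none was higher (23.0% of all genes; none at an unadjusted p under 0.05 and none by DESeq2). The median log2 fold change was -0.81 against -0.03 over all genes. The treated samples lay wholly below MIN for 48 genes (87.3%; 36.0% of all genes) and wholly above for 0 (33.6%). The 10 that did not pass were Ccne1, Cdc25a, E2f1, Pcna, Rfc3, Prc1, Kif20a, Cdc6, Cdt1 and Gins1. Without MIN replicate 1 or 2 the count was 38 or 36, without sulindac replicate 1 or 3 it was 34 or 33, and without MIN replicate 3 or sulindac replicate 2 it was 50 or 48, runs in which 21.0% to 28.5% of all genes were lower. Every lost call was among Ccne2, Cdc20, Cdk1, E2f7, Mcm4, Ttk and Ung, lost in each of the 4 runs with fewer calls, and Cdc45, Cdk2, Mcm7, Rrm2 and Rrm1, lost in some of them.

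**Figure D3:**
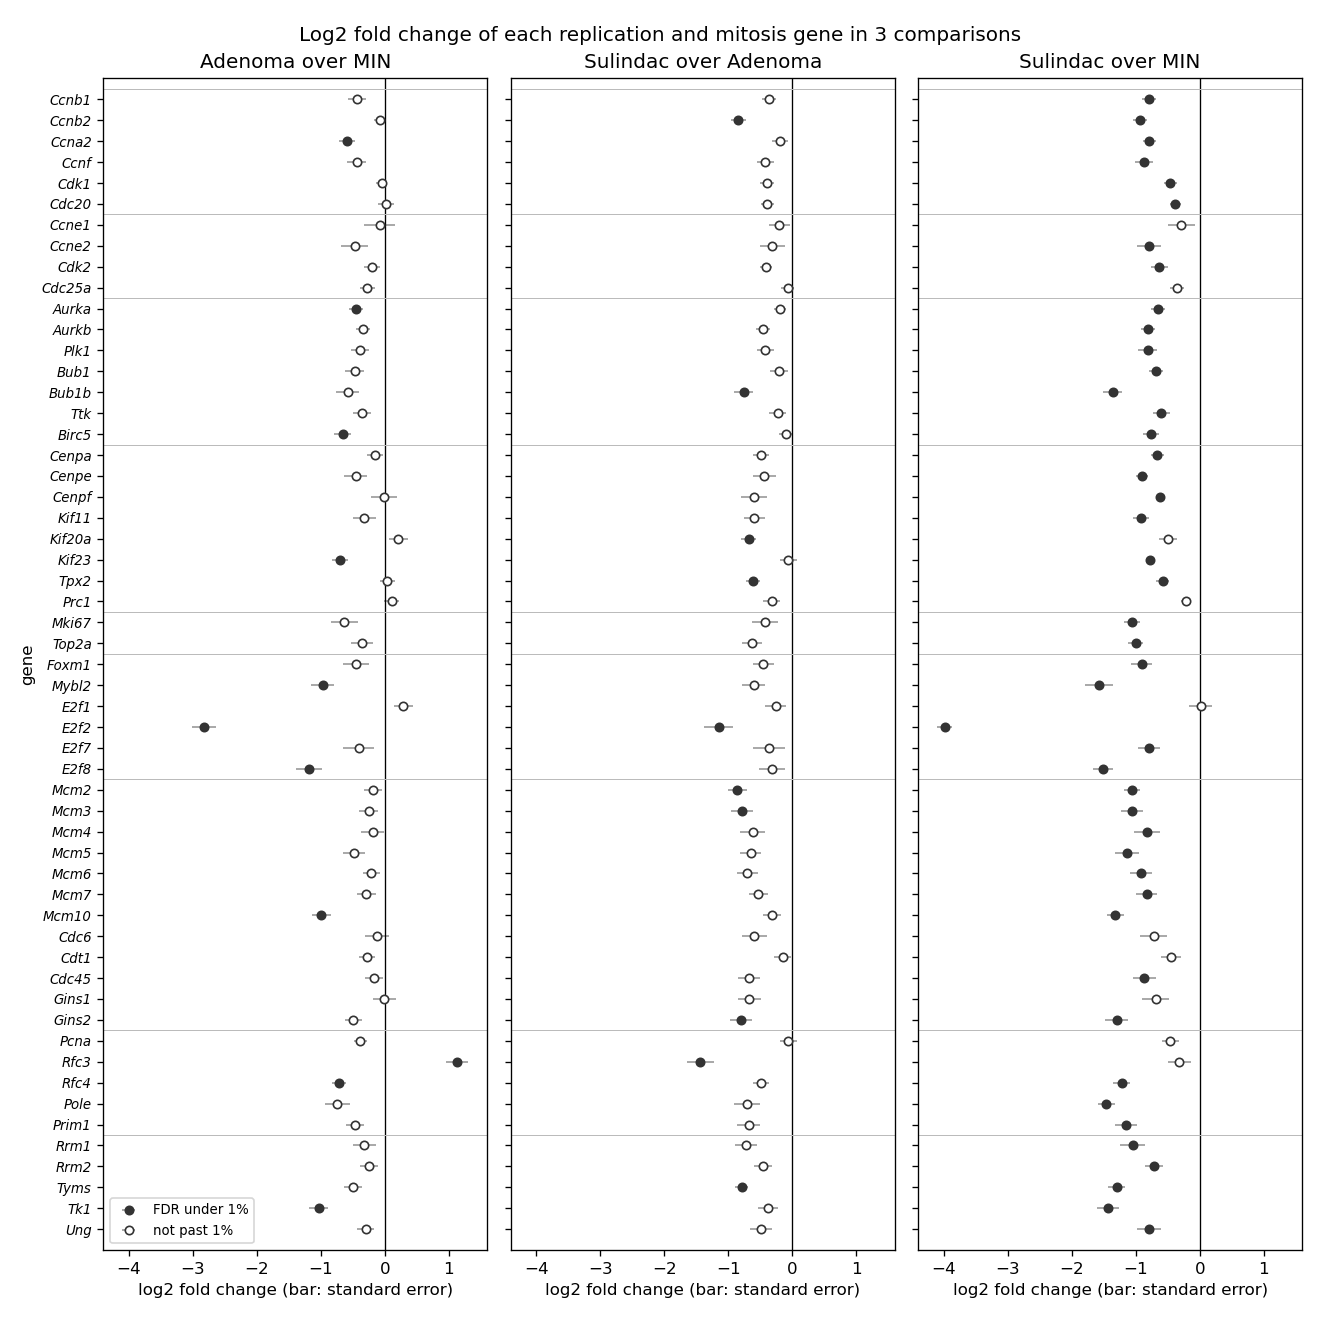
Log2 fold change (x axis) of each of the 55 genes (y axis, ordered by role) in the 3 comparisons, with the standard error as a bar, filled where the FDR was under 1% and open where it was not. All 55 points lie left of 0 for sulindac over adenoma, 49 for adenoma over MIN and 54 for sulindac over MIN, with E2f2 farthest to the left in both comparisons with MIN and Rfc3 after sulindac.

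Among the mitotic cyclins, CDK1 and their partners (6 genes), 1 was lower in adenoma than in MIN (20.1% of all genes). After sulindac 1 was lower (9.10% of all genes), and all 6 were lower in sulindac-treated adenoma than in MIN (26.8% of all genes). The median log2 fold changes of the 6 were -0.26, -0.39 and -0.80. Ccnb2, a B-type cyclin that activates CDK1, stood at 92.9, 92.0 and 85.6 CPM in MIN, 85.4, 81.7 and 87.9 CPM in adenoma and 42.1, 55.1 and 45.1 CPM after sulindac. MIN and adenoma overlapped, whereas every treated sample lay below all 6 others. Adenoma over MIN gave -0.08 (SE 0.09, edgeR adjusted p = 0.489) on the log2 scale, with the standard error (SE) beside it, and Ccnb2 fell by 0.84 (SE 0.11, edgeR adjusted p = 0.00115) on the log2 scale after sulindac. Ccna2, cyclin A2, which acts in S phase and at mitotic entry, differed at the other step, with 201, 203 and 175 CPM in MIN, 136, 137 and 111 CPM in adenoma and 101, 126 and 108 CPM after sulindac. Adenoma lay below MIN in every sample, and treated and untreated adenoma overlapped. Adenoma over MIN gave -0.59 (SE 0.12, edgeR adjusted p = 0.00337), a call lost without MIN replicate 1 or 2, and sulindac over adenoma -0.19 (SE 0.12, edgeR adjusted p = 0.267). Ccnb1, the other B-type cyclin, was at 151, 138 and 116 CPM in MIN, 110, 104 and 86.9 CPM in adenoma and 74.5, 82.4 and 76.7 CPM after sulindac, in 3 groups that did not overlap. Neither single step passed for Ccnb1 (edgeR adjusted p = 0.0262 and 0.0391), while sulindac over MIN gave -0.80 (SE 0.11, edgeR adjusted p = 0.000215). Ccnf, cyclin F, which directs ubiquitin ligation, was at 67.0, 64.6 and 48.9 CPM in MIN, 48.9, 45.5 and 38.9 CPM in adenoma and 35.3, 34.4 and 29.2 CPM after sulindac. The lowest MIN and the highest adenoma sample of Ccnf were nearly equal, and sulindac over MIN gave -0.87 (SE 0.14, edgeR adjusted p = 0.000604). Cdk1 itself, the mitotic kinase, and Cdc20, the activator of the anaphase-promoting complex, had log2 fold changes of -0.05 and 0.02 for adenoma over MIN and of -0.39 and -0.39 for sulindac over adenoma. Treated samples lay below untreated ones for both, without passing the test. Under library size alone the values of Ccnb2 and Cdk1 for adenoma over MIN were 0.05 and 0.08.

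Of the G1/S regulators (4 genes), none passed as lower or higher in adenoma over MIN or in sulindac over adenoma by edgeR at an FDR of 1%, with 0 and 1 at an unadjusted p under 0.05 and 0 and 1 by DESeq2, the 1 being Cdk2 in both cases. Ccne1, cyclin E1, which with CDK2 starts S phase, was at 19.6, 14.1 and 10.7 CPM in MIN, 16.9, 12.9 and 12.0 CPM in adenoma and 11.2, 13.8 and 11.5 CPM after sulindac, and the 3 groups overlapped. Sulindac over MIN gave -0.29 (SE 0.21, edgeR adjusted p = 0.264). Ccne2, the second cyclin E, was at 17.5, 14.7 and 11.4 CPM in MIN, 11.5, 12.0 and 8.04 CPM in adenoma and 7.63, 9.90 and 7.77 CPM after sulindac. Treated Ccne2 lay below MIN in every sample with -0.79 (SE 0.19, edgeR adjusted p = 0.00540), a call lost in 4 of the 6 runs that left out a sample. Cdk2, their kinase, was at 56.0, 48.8 and 39.9 CPM in MIN, 42.1, 42.0 and 41.4 CPM in adenoma and 28.9, 33.2 and 31.7 CPM after sulindac. The adenoma samples of Cdk2 were nearly identical and all treated samples lay below them, with -0.41 (SE 0.10, edgeR adjusted p = 0.0113) for sulindac over adenoma and -0.63 (SE 0.13, edgeR adjusted p = 0.00284) for sulindac over MIN. The latter was lost in 3 of the 6 runs that left out a sample. Cdc25a, the phosphatase that activates CDK2, was at 65.7, 60.2 and 50.4 CPM in MIN, 51.0, 50.0 and 45.5 CPM in adenoma and 48.0, 47.8 and 42.8 CPM after sulindac, and did not pass in any comparison (edgeR adjusted p = 0.103, 0.615 and 0.0236).

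The mitotic kinases and spindle checkpoint genes (7 genes) had 2 lower in adenoma than in MIN (Aurka and Birc5, against 20.1% of all genes). After sulindac 1 was lower (Bub1b, against 9.10% of all genes). All 7 of these genes were lower in sulindac-treated adenoma than in MIN (26.8% of all genes). Bub1b, which encodes the checkpoint kinase BUBR1, had the largest difference among them and stood at 129, 123 and 90.5 CPM in MIN, 84.3, 83.4 and 60.4 CPM in adenoma and 41.2, 50.5 and 42.5 CPM after sulindac. The 3 groups did not overlap, and adenoma replicate 3 lay apart from the other adenoma samples. Sulindac over adenoma gave -0.76 (SE 0.15, edgeR adjusted p = 0.00608), a call lost in 5 of the 6 runs that left out a sample, and sulindac over MIN -1.36 (SE 0.15, edgeR adjusted p = 6.68e-05). Birc5, survivin of the chromosomal passenger complex, was at 75.4, 70.7 and 56.2 CPM in MIN, 44.2, 40.2 and 43.8 CPM in adenoma and 37.3, 45.2 and 37.1 CPM after sulindac. For Birc5 the step lay between MIN and adenoma, -0.66 (SE 0.13, edgeR adjusted p = 0.00265), although the call was lost without MIN replicate 1 or 2 or adenoma replicate 2. Treated and untreated adenoma overlapped, with -0.09 (SE 0.11, edgeR adjusted p = 0.535). Aurka, the centrosomal Aurora kinase, behaved alike in value, with -0.45 (SE 0.11, edgeR adjusted p = 0.00953) and -0.19 (SE 0.10, edgeR adjusted p = 0.177), and lost the first call without MIN replicate 1 or 2 or any adenoma replicate. Aurkb, the Aurora kinase of the passenger complex, was at 88.6, 92.4 and 76.1 CPM in MIN, 69.0, 71.1 and 62.6 CPM in adenoma and 44.4, 55.8 and 47.3 CPM after sulindac. Its 3 groups did not overlap, and sulindac over MIN gave -0.81 (SE 0.11, edgeR adjusted p = 0.000276). Plk1, Bub1 and Ttk, kinases of mitotic entry and the checkpoint, had log2 fold changes of -0.81, -0.68 and -0.60 for sulindac over MIN, and passed in that comparison only, while whether it differs from the others was not tested.

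Of the centromere, spindle and cytokinesis genes (8 genes), 1 was lower in adenoma than in MIN (20.1% of all genes) and 2 were lower after sulindac (9.10% of all genes). In sulindac-treated adenoma, 6 of these 8 genes were lower than in MIN (26.8% of all genes). Their median log2 fold change for adenoma over MIN was -0.08, the nearest to 0 of the 9 role groups, against -0.54 for sulindac over adenoma. Kif23, a kinesin of the central spindle needed for cytokinesis, was at 85.1, 83.6 and 87.0 CPM in MIN, 58.4, 55.8 and 42.9 CPM in adenoma and 49.2, 51.6 and 49.4 CPM after sulindac. MIN stood clear of both other groups, which overlapped, with -0.70 (SE 0.13, edgeR adjusted p = 0.00189) for adenoma over MIN and -0.06 (SE 0.13, edgeR adjusted p = 0.756) for sulindac over adenoma. With library size alone the first of these did not pass, and the median of the 8 genes for adenoma over MIN was 0.05. Tpx2, the spindle assembly factor that activates Aurora A, was at 116, 115 and 95.9 CPM in MIN, 119, 119 and 98.5 CPM in adenoma and 70.2, 79.9 and 70.2 CPM after sulindac. MIN and adenoma overlapped and all treated samples lay lower, with -0.61 (SE 0.11, edgeR adjusted p = 0.00451) for sulindac over adenoma, a call lost in 5 of the 6 runs that left out a sample. Kif20a, a kinesin of late mitosis, was at 86.0, 78.2 and 59.2 CPM in MIN, 92.9, 88.2 and 76.1 CPM in adenoma and 49.2, 59.8 and 51.1 CPM after sulindac. Treated samples of Kif20a lay below untreated ones, while overlapping MIN. Sulindac over adenoma gave -0.68 (SE 0.12, edgeR adjusted p = 0.00336), a call lost in 4 of the 6 runs. Of the 50-base stretches in its transcripts, 25.2% occur in Cdc23 as well, which overlaps Kif20a on the opposite strand. Cenpe, a kinetochore motor, was at 88.8, 100 and 85.3 CPM in MIN, 74.1, 78.1 and 47.8 CPM in adenoma and 46.2, 52.2 and 48.7 CPM after sulindac. Adenoma replicate 3 lay beside the treated samples, far below the other adenoma samples, and sulindac over MIN gave -0.90 (SE 0.09, edgeR adjusted p = 4.61e-05). Kif11, the motor that separates the spindle poles, was at 163, 159 and 121 CPM in MIN, 130, 134 and 90.9 CPM in adenoma and 72.2, 86.1 and 76.6 CPM after sulindac, again with adenoma replicate 3 apart, and gave -0.92 (SE 0.13, edgeR adjusted p = 0.000277) for sulindac over MIN. Cenpa, the centromeric histone, and Cenpf, a kinetochore protein, were lower in sulindac-treated adenoma than in MIN by 0.66 and 0.62 on the log2 scale. Prc1, which bundles the central spindle, did not pass in any comparison, with values from -0.32 to 0.11.

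The best-known markers of cycling cells are Mki67, the Ki-67 antigen that coats mitotic chromosomes, and Top2a, the topoisomerase that untangles them. Mki67 was at 655, 626 and 490 CPM in MIN, 467, 413 and 264 CPM in adenoma and 283, 273 and 293 CPM after sulindac. Adenoma lay below MIN in every sample but ranged widely, and its lowest sample lay below all 3 treated ones. The mean (SD, n = 3) was 590 ± 87.9 CPM for MIN and 283 ± 9.85 CPM after sulindac, with -1.06 (SE 0.12, edgeR adjusted p = 9.35e-05). Adenoma over MIN gave -0.63 (SE 0.21, edgeR adjusted p = 0.0366) and sulindac over adenoma -0.43 (SE 0.20, edgeR adjusted p = 0.127), neither of which passed. In the fit with the replicate block Mki67 was lower in adenoma than in MIN. Top2a was at 648, 664 and 526 CPM in MIN, 517, 542 and 379 CPM in adenoma and 280, 335 and 309 CPM after sulindac. Treated samples lay below all others, while the MIN and adenoma ranges overlapped. The mean after sulindac was 0.503 of that in MIN (edgeR adjusted p = 0.000115), and sulindac over adenoma gave -0.63 (SE 0.15, edgeR adjusted p = 0.0138). Without adenoma replicate 3, both Mki67 and Top2a passed as lower after sulindac.

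**Figure D4:**
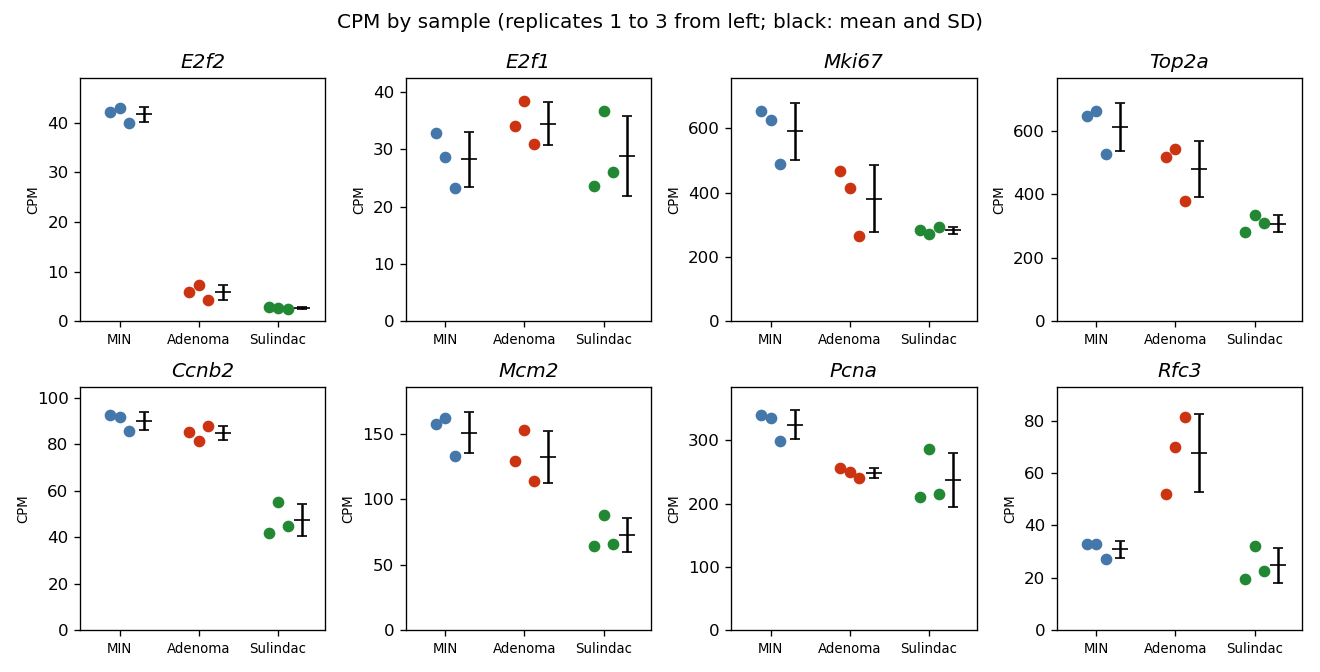
CPM (y axis, from 0) of 8 genes in the 3 samples of MIN, adenoma and sulindac-treated adenoma, replicates 1 to 3 from left to right, with the mean and SD in black. E2f2 lies at 39.9 CPM or more in MIN and at 7.35 CPM or less in every other sample, Rfc3 is high in adenoma only, and E2f1 overlaps across the groups.

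The transcription factors (6 genes) held the largest differences from MIN in the set, while for sulindac over adenoma the largest was that of Rfc3 (-1.44). E2f2, an activator of S phase genes, was at 42.1, 43.0 and 39.9 CPM in MIN, 5.84, 7.35 and 4.39 CPM in adenoma and 2.87, 2.66 and 2.39 CPM after sulindac, which in adenoma corresponds to 152 to 263 reads and after sulindac to 82 to 87. The 3 groups stood clear of each other, with the widest gap between MIN and adenoma. E2f2 fell by 2.83 (SE 0.19, edgeR adjusted p = 4.52e-06) on the log2 scale from MIN to adenoma, or to 0.141 of the MIN mean. After sulindac it fell by a further 1.15 (SE 0.23, edgeR adjusted p = 0.00676), a call lost in 5 of the 6 runs that left out a sample although the value stayed between -1.33 and -0.95. None of the 50-base stretches of E2f2 was shared with another gene. E2f1, its close relative, was at 32.8, 28.6 and 23.3 CPM in MIN, 34.1, 38.4 and 31.0 CPM in adenoma and 23.6, 36.7 and 26.0 CPM after sulindac, with all 3 groups overlapping. Its log2 fold changes were 0.29 (SE 0.15, edgeR adjusted p = 0.138), -0.26 (SE 0.17, edgeR adjusted p = 0.268) and 0.02 (SE 0.18, edgeR adjusted p = 0.933) for adenoma over MIN, sulindac over adenoma and sulindac over MIN. The difference between E2f1 and E2f2 was not tested. E2f8, an atypical E2F that represses transcription, was at 52.6, 53.7 and 39.1 CPM in MIN, 22.7, 25.8 and 15.6 CPM in adenoma and 14.3, 19.6 and 17.5 CPM after sulindac. Adenoma lay well below MIN with -1.18 (SE 0.20, edgeR adjusted p = 0.00126), and overlapped the treated samples with -0.32 (SE 0.20, edgeR adjusted p = 0.259). E2f7, its partner, did not pass in either step (-0.41 and -0.37) and was lower in sulindac-treated adenoma than in MIN by 0.79 on the log2 scale. Mybl2, the B-MYB protein that switches on G2/M genes, was at 54.7, 51.2 and 34.9 CPM in MIN, 26.3, 24.9 and 20.8 CPM in adenoma and 16.7, 18.8 and 11.8 CPM after sulindac. Its groups did not overlap, with -0.97 (SE 0.18, edgeR adjusted p = 0.00204) for adenoma over MIN and -1.58 (SE 0.22, edgeR adjusted p = 0.000329) for sulindac over MIN, and 19.3% of its 50-base stretches recur elsewhere, mostly in Gm3320. Foxm1, the forkhead factor of the same program, had -0.45, -0.45 and -0.91, of which only the last, sulindac over MIN, passed.

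Origin licensing and the replicative helicase (12 genes) had 1 gene lower in adenoma than in MIN (20.1% of all genes) and 3 lower after sulindac (9.10% of all genes). In sulindac-treated adenoma, 9 were lower than in MIN (26.8% of all genes). The median log2 fold changes of the 12 were -0.23, -0.66 and -0.89. After sulindac 11 of the 12 were lower at an unadjusted p under 0.05 (3108 of all 12962 genes), and DESeq2 called 8 (13.6% of all genes). Mcm2, a subunit of the MCM2-7 ring, was at 157, 162 and 133 CPM in MIN, 129, 153 and 114 CPM in adenoma and 64.3, 87.6 and 66.0 CPM after sulindac. MIN and adenoma overlapped, and every treated sample lay below them, replicate 2 being the highest of the treated. Sulindac over adenoma gave -0.86 (SE 0.15, edgeR adjusted p = 0.00367), a call lost in 3 of the 6 runs that left out a sample. The other 5 subunits had values for this comparison between -0.79 (Mcm3, which passed) and -0.53 (Mcm7), and all 6 passed for sulindac over MIN, between -1.14 (Mcm5) and -0.82 (Mcm4). Per kilobase of exon, the 6 subunits of the ring were at similar levels, from 33.6 ± 6.26 (Mcm4) to 56.3 ± 9.25 CPM per kb (Mcm7; SD, n = 3) in MIN, from 29.4 ± 5.58 (Mcm4) to 47.0 ± 5.49 CPM per kb (Mcm6) in adenoma, and from 19.1 ± 4.95 (Mcm4) to 31.8 ± 5.90 CPM per kb (Mcm7) after sulindac. Mcm4 was the lowest in each group on this scale, and neighbors in the order differed by less than the larger of their SDs, apart from Mcm4 and Mcm2 in MIN.

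Mcm10, which helps the helicase to start and is not part of the ring, followed another course, with 64.3, 66.1 and 50.5 CPM in MIN, 32.9, 32.6 and 25.5 CPM in adenoma and 22.1, 26.7 and 24.0 CPM after sulindac. Adenoma lay below MIN in every sample and overlapped the treated samples, with -0.99 (SE 0.15, edgeR adjusted p = 0.000607) for adenoma over MIN and -0.32 (SE 0.14, edgeR adjusted p = 0.102) for sulindac over adenoma. Gins2, a subunit of the GINS complex, was at 27.1, 28.4 and 21.9 CPM in MIN, 17.8, 18.9 and 18.5 CPM in adenoma and 8.67, 13.5 and 9.45 CPM after sulindac. Its 3 groups did not overlap, with -0.80 (SE 0.17, edgeR adjusted p = 0.00724) for sulindac over adenoma, lost in 4 of the 6 runs that left out a sample, and -1.30 (SE 0.18, edgeR adjusted p = 0.000284) for sulindac over MIN. These values are uncertain, since 65.4% of the 50-base stretches of Gins2 overlap Gse1 on the opposite strand and the strandedness of the counting is not stated. Gins1, of the same complex, shared no stretch and did not pass, with -0.67 for sulindac over adenoma and all treated samples below the untreated. Cdc45, the partner of MCM and GINS in the active helicase, passed for sulindac over MIN only, with -0.87 (SE 0.18, edgeR adjusted p = 0.00281). Cdc6 and Cdt1, the loaders of the MCM ring, did not pass in any comparison, with values for sulindac over MIN of -0.72 and -0.45.

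The clamp, clamp loader, polymerase and primase genes (5 genes) held the one gene that was higher in adenoma. Rfc3, a subunit of the clamp loader that places PCNA on DNA, was at 32.8, 32.8 and 27.2 CPM in MIN, 51.9, 70.0 and 81.3 CPM in adenoma and 19.4, 32.3 and 22.8 CPM after sulindac. All adenoma samples lay above both other groups, and the treated samples overlapped MIN. Rfc3 rose by 1.13 (SE 0.17, edgeR adjusted p = 0.000611) on the log2 scale from MIN to adenoma, a mean ratio of 2.19, and fell by 1.44 (SE 0.21, edgeR adjusted p = 0.00159) after sulindac. The rise passed with any 1 sample left out and the fall with any but sulindac replicate 3. Sulindac over MIN gave -0.32 (SE 0.18, edgeR adjusted p = 0.146). Rfc3 shared no 50-base stretch with another gene. Rfc4, a second subunit of the same loader, was at 41.4, 42.0 and 37.3 CPM in MIN, 25.7, 24.8 and 23.2 CPM in adenoma and 15.7, 20.7 and 15.7 CPM after sulindac. Its groups did not overlap and ran downward from MIN, with -0.71 (SE 0.11, edgeR adjusted p = 0.000604) for adenoma over MIN and -1.22 (SE 0.13, edgeR adjusted p = 5.52e-05) for sulindac over MIN, in the opposite direction to Rfc3 at the first step.

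Pcna, the sliding clamp, was at 340, 336 and 299 CPM in MIN, 256, 250 and 240 CPM in adenoma and 210, 287 and 216 CPM after sulindac. Adenoma lay below MIN in every sample and overlapped the treated samples, of which replicate 2 was the highest. None of its 3 comparisons passed in the main fit (edgeR adjusted p = 0.0134, 0.742 and 0.0127), although every treated sample lay below MIN. Sulindac over MIN passed as lower under each alternative that kept all samples, apart from RLE size factors. It also passed without MIN replicate 3 or sulindac replicate 2. Adenoma over MIN passed as lower by DESeq2, at an FDR of 5% and without MIN replicate 3. Of the 50-base stretches of Pcna, 19.1% recur in Pcna-ps2. Pcna still had the highest level per kilobase of exon of the 55 genes in each group, at 214 ± 14.9, 164 ± 5.32 and 157 ± 28.2 CPM per kb (SD, n = 3) in MIN, adenoma and sulindac. Pole, the catalytic subunit of the leading-strand polymerase, was at 82.9, 82.8 and 64.7 CPM in MIN, 51.9, 53.6 and 32.1 CPM in adenoma and 25.2, 32.0 and 26.8 CPM after sulindac. Its groups did not overlap, although adenoma replicate 3 was level with the highest treated sample, and sulindac over MIN gave -1.46 (SE 0.13, edgeR adjusted p = 2.20e-05). Adenoma over MIN gave -0.74 (SE 0.20, edgeR adjusted p = 0.0132). Prim1, the primase subunit that lays down RNA primers, was lower in sulindac-treated adenoma than in MIN by 1.15 on the log2 scale, with its groups not overlapping at either step.

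Nucleotide supply and uracil removal (5 genes) had 1 gene lower in adenoma than in MIN (20.1% of all genes) and 1 lower after sulindac (9.10% of all genes). All 5 were lower in sulindac-treated adenoma than in MIN (26.8% of all genes). Tk1, the salvage kinase for thymidine, was at 79.2, 88.7 and 62.6 CPM in MIN, 41.1, 37.2 and 34.3 CPM in adenoma and 29.6, 33.6 and 22.9 CPM after sulindac. Adenoma lay far below MIN with -1.03 (SE 0.15, edgeR adjusted p = 0.000403), and the treated samples lay somewhat lower with -0.38 (SE 0.15, edgeR adjusted p = 0.0781). Tyms, which makes thymidylate afresh, was at 81.3, 78.8 and 59.5 CPM in MIN, 52.3, 54.6 and 48.1 CPM in adenoma and 28.8, 32.5 and 28.0 CPM after sulindac. Its groups did not overlap, with -0.50 (SE 0.14, edgeR adjusted p = 0.0139) for adenoma over MIN and -0.79 (SE 0.10, edgeR adjusted p = 0.00114) for sulindac over adenoma. The steps at which these 2 genes passed were thus not the same, though the difference between them was not tested. Rrm1, the large subunit of ribonucleotide reductase, was at 244, 241 and 165 CPM in MIN, 185, 192 and 142 CPM in adenoma and 89.8, 130 and 95.5 CPM after sulindac. All treated samples lay below the untreated ones, with -0.72 (SE 0.17, edgeR adjusted p = 0.0120) for sulindac over adenoma, and -1.05 (SE 0.19, edgeR adjusted p = 0.00146) for sulindac over MIN, which was lost without sulindac replicate 3. Rrm2, its small subunit, and Ung, the glycosylase that removes uracil from DNA, passed for sulindac over MIN only, with -0.71 and -0.79.

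**Figure D5:**
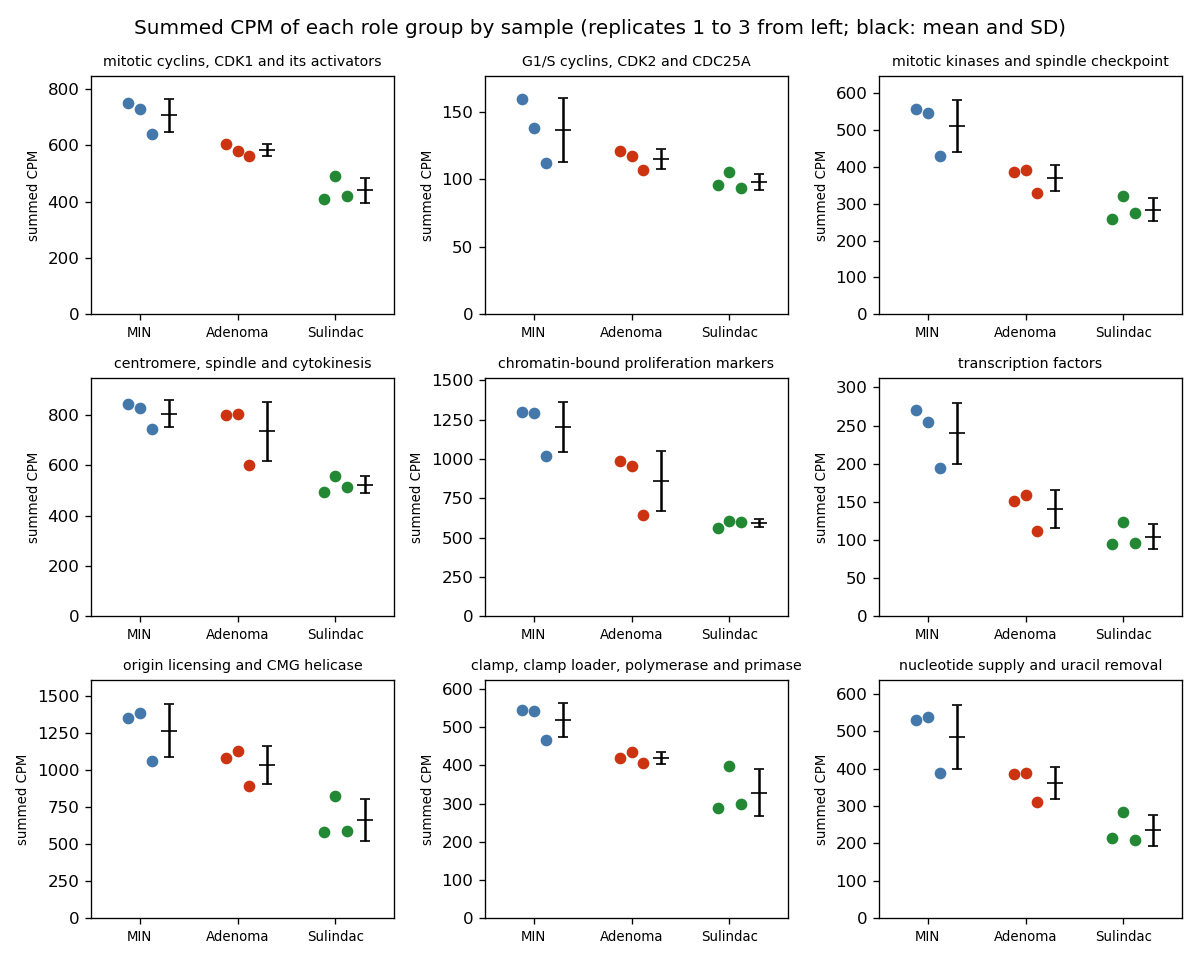
Summed CPM (y axis, from 0) of the genes of each of the 9 role groups in the 3 samples of MIN, adenoma and sulindac-treated adenoma, replicates 1 to 3 from left to right, with the mean and SD in black. Treated samples lie below MIN in all 9 panels, while 2 of the 3 adenoma points lie within the MIN range for centromere, spindle and cytokinesis genes and nearer to the treated samples for transcription factors.

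Split by phase, the S phase genes (26) had a median log2 fold change of -0.28 for adenoma over MIN and -0.61 for sulindac over adenoma, and the mitosis genes (23) had -0.36 and -0.42. The counts of lower genes were 3 (11.5%) and 5 (19.2%) among the former and 4 (17.4%) and 4 (17.4%) among the latter. Of all genes tested, 20.1% and 9.10% were lower in these comparisons. Whether the 2 sides differ was not tested.

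Other genes of the same pathways, from textbook lists, were read beside these. Of 44 further replication genes, 8 (18.2%) were lower and 1 (2.27%) higher in adenoma than in MIN, where 20.1% and 18.5% of all genes were. After sulindac 5 (11.4%) were lower, against 9.10% of all genes. The median log2 fold change of the 44 was then -0.42, with 40 negative and 4 positive values. At an unadjusted p under 0.05, 28 of the 44 were lower and 1 higher, where 3108 and 2685 of all 12962 genes were. In sulindac-treated adenoma over MIN 26 (59.1%) were lower and 2 (4.55%) higher, against 26.8% and 23.0%. Pold2, a subunit of the lagging-strand polymerase, and Dna2, a nuclease of Okazaki fragments, had log2 fold changes of -0.88 and -1.41 for adenoma over MIN, while Orc4, of the origin recognition complex, had 0.65. Timeless, a fork protection factor, Rpa3, of the single-strand binding complex, and Cdc7, an origin-firing kinase, had -1.20, -0.86 and -0.73 for sulindac over adenoma. Of 65 further mitosis genes, 7 (10.8%) were lower and 5 (7.69%) higher in adenoma than in MIN, 8 (12.3%) were lower after sulindac, and 37 (56.9%) were lower and 2 (3.08%) higher in sulindac-treated adenoma than in MIN, beside the same shares of all genes. Ckap2 and Gtse1, microtubule-bound mitotic proteins, were among the higher in adenoma (0.73 and 0.65), and Gtse1 fell after sulindac by 0.60 on the log2 scale, as did the centromere gene Cenpm by 0.98.

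The E2F, DP and DREAM complex genes outside the set (14) had 4 (28.6%) lower and 1 (7.14%) higher in adenoma than in MIN, against 20.1% and 18.5% of all genes. In sulindac-treated adenoma over MIN, 5 (35.7%) were lower and 3 (21.4%) higher, against 26.8% and 23.0% of all genes. Rb1, the retinoblastoma protein that holds E2F factors in check, was at 135, 149 and 172 CPM in MIN, 59.0, 65.2 and 56.4 CPM in adenoma and 61.7, 69.1 and 76.2 CPM after sulindac, with MIN above all 6 other samples and -1.33 (SE 0.12, edgeR adjusted p = 3.14e-05) for adenoma over MIN. Its relative Rbl1 had -0.83 and E2f4, an E2F of resting cells, -0.61 in the same comparison. After sulindac none of the 14 was lower by edgeR (4 at an unadjusted p under 0.05, 0 by DESeq2), where 9.10% of all genes were. E2f5 and E2f6, E2F factors known mainly as repressors, were higher by 0.54 and 0.63 on the log2 scale. Of all genes 8.32% were higher after sulindac. Of 19 S phase checkpoint and fork repair genes, 1 was higher and none lower in adenoma than in MIN by edgeR (7 lower at an unadjusted p under 0.05, 4 by DESeq2). The shares of all genes were 18.5% and 20.1%. After sulindac 3 (15.8%) were lower, against 9.10% of all genes. In sulindac-treated adenoma 10 (52.6%) were lower and 1 (5.26%) higher than in MIN, against 26.8% and 23.0% of all genes. Rad9a, of the checkpoint clamp, was higher in adenoma by 0.93 on the log2 scale and fell by 0.59 after sulindac, as did Fanci, of the Fanconi pathway, by 0.91.

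Some of the 55 genes share sequence with others, so that their counts could include reads of a near-copy or of an overlapping gene. In the GENCODE transcripts used for this check, 13 genes shared more than 8% of their 50-base stretches with another gene: Gins2 at 65.4%, Kif20a at 25.2%, Ccnb1 at 23.4% (mostly the pseudogene Ccnb1-ps), Mcm7 at 23.3%, Mybl2 at 19.3%, Pcna at 19.1%, Ccne2 at 14.4% (Ints8), Ccna2 at 11.4% (Exosc9), Cdc20 at 10.6%, Plk1 at 10.4%, Prc1 at 9.77% (Rccd1), Rfc4 at 9.14% (Eif4a2) and E2f8 at 8.26% (Gm2788). Values of these genes are uncertain for that reason, by an amount that was not measured. For Gins2, Kif20a, Ccne2, Ccna2, Prc1, Rfc4 and E2f8 the main sharing gene overlaps on the opposite strand. Such an overlap matters only if the counting ignored strand.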

How the data were processed

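RNA-seq was run on 9 organoid samples, 3 each of MIN, Adenoma and Sulindac, and the authors deposited raw read counts per gene. The submitters' processing notes name RSEM, Bowtie2 2.2.4 and the mouse build mm9, with no role or order, and the annotation and the strandedness of the counting are not given in the sources used here. MIN replicate 1 had 3 columns, of which the last equaled the sum of the other 2, taken as separate runs of 1 sample, in all 23955 rows, and only that sum was used. Columns left out for want of a sample numbered 0.

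Counts were tested with edgeR 4.0.16 (limma 3.58.1, R 4.3.3): filterByExpr, TMM scaling, a robust quasi-likelihood fit of only the groups compared, and Benjamini-Hochberg adjustment over all genes tested, with an FDR of 1% as the threshold. The standard error of a log2 fold change was taken as its size over the root of F. CPM were scaled by TMM over all 9 samples. Total counts were 30881206 to 48412477 per sample, and the floor of 3 counts covers counting error only. Promoter and transcript sequences came from GRCm38.p6 and GENCODE M21, another build than that of the counts, and were matched by symbol with no coordinates carried over. No promoter was matched for 10 of the 55 genes (Ccna2, Foxm1, Gins2, Ccne2, Mcm4, Gins1, Pole, Tpx2, Kif20a and Aurkb). Shared sequence is the percent of a gene's 50-base stretches found in another gene's transcripts, read on either strand.

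The genes given with values in every sample were Mki67, Top2a, Pcna, Ccnb1, Mcm2 and Ccne1, and the 2 with the largest absolute log2 fold change in each role group and comparison, 31 in all. E2f1 and Rb1 were added after their values were seen. The genes and lists were chosen with earlier results of these data known. Deviations of same-numbered samples from their group means, over 13883 genes, correlated at 0.13, 0.11 and 0.19 for adenoma and MIN, each over 0.1. This is a weak ground for taking the numbers to pair these samples, since differently numbered pairs of replicates 1 and 2 gave 0.05 and 0.07. The main fits had no pairing term, and the replicate block was run only as an alternative. The labels do not say what a number marks. Alternatives were RLE size factors, library size alone, 2 other count filters, 1 fit of all 9 samples, a replicate block, DESeq2 1.42.0, an FDR of 5% and each sample left out. The scripts were tested on simulated data.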

Additional observations from a re-analysis of the deposited data

How the results depend on the processing

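Of the 55 genes, 10 were lower in adenoma than in MIN, and the count was 6 with library size alone, 19 with the replicate block, 17 by DESeq2, 22 at an FDR of 5%, and 7 to 18 with 1 sample left out. Of all genes 16.6%, 19.9%, 23.6% and 26.7% were lower under the first 4 of these. After sulindac 10 were lower, against 25 with library size alone, 25 by DESeq2, 34 at an FDR of 5%, and 2 to 26 with 1 sample left out, where 15.3%, 13.6%, 18.3% and 2.93% to 11.3% of all genes were lower. Over all genes after sulindac, 1078 were higher and 1179 lower. With library size alone these were 603 and 1983, at an FDR of 5% 2034 and 2374, with 1 sample left out 423 to 1403 and 386 to 1488, and by DESeq2 1778 and 1766. The share of calls that were higher moved from 47.8% to 23.3% after sulindac with library size alone, and from 48.0% to 57.7% for adenoma over MIN. Rfc3 was the 1 gene higher in adenoma under each alternative run.

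Same-numbered treated and untreated samples did not all deviate together (0.25, 0.21 and -0.07), nor did treated and MIN samples (-0.03, 0.4 and 0.25). Some of these values exceed those for adenoma and MIN, and the check cannot settle whether the numbers pair these samples. The block gave 15 genes lower after sulindac and 50 lower in sulindac-treated adenoma than in MIN, against 10 and 45.

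No called value changed sign in any alternative run. Among values that did not pass, library size alone turned Ccnb2 to 0.05, Cdk1 to 0.08, Ccne1 to 0.05, Cenpf to 0.13, Cdc6 to 0.01 and Gins1 to 0.12 for adenoma over MIN, the block turned Gins1 to 0.01, and E2f1 for sulindac over MIN was -0.01 with library size alone and -0.01 with at least 10 counts in every sample. With 1 sample left out, the values ranged for adenoma over MIN from -0.07 to 0.09 (Cdc20), -0.27 to 0.16 (Ccne1), -0.13 to 0.21 (Cenpf), -0.05 to 0.13 (Tpx2), -0.28 to 0.01 (Cdc6) and -0.16 to 0.09 (Gins1), for sulindac over adenoma from -0.19 to 0.03 (Kif23) and -0.20 to 0.02 (Pcna), and for sulindac over MIN from -0.18 to 0.14 (E2f1). The causes of these changes were not tested. With 3 samples a group, a p that missed the threshold does not show that groups were alike.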
